A study of Homo sapiens with 8 samples.

Results

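The RNA of 10 amino acid transporters of the plasma membrane was followed in human leukemia cells that had become resistant to auxin-induced protein degradation. The genes were *SLC3A2*, *SLC7A5*, *SLC7A6*, *SLC7A11*, *SLC7A1*, *SLC1A4*, *SLC1A5*, *SLC38A1*, *SLC38A2* and *SLC43A1*, chosen by symbol with earlier results of these data known. All 10 were found among the 60754 listed genes and spike-in sequences, and all 10 passed the filter on low values (1 TPM or more in any library, TPM being the share of a library's transcripts that a gene takes, corrected for transcript length), as did 15614 entries in all. The cells were SEM, a B-cell acute lymphoblastic leukemia (B-ALL) line with a rearranged *KMT2A* gene. In every group both alleles of *CTCF*, the gene of an architectural chromatin protein, carried an in-frame miniAID-mClover3 degron tag, and a lentivirus supplied OsTIR1(F74G), the receptor that 5-Ph-IAA, an auxin analog, bridges to the tag, together with Zeocin resistance. C17.2 and C3.2 are each a single clone of such cells, so each stands for 1 clone and not for the line. Parental cells were untreated. Resistant cells had grown until day 36 in 1 μM 5-Ph-IAA with 100 μg/ml Zeocin and were then taken off treatment. In C3.2 resistant cells the degron was mutated and CTCF stayed at full length, and in C17.2 resistant cells a truncated CTCF had appeared beside the tagged protein, which remained sensitive to auxin. Each of the 4 groups had 2 libraries of total RNA, 8 in all. The labels do not say whether the libraries of a group came from separate cultures, so every p-value measures only the spread between these libraries, which may be technical.

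Amino acids are polar and cross the plasma membrane through carrier proteins of the solute carrier (SLC) families. SLC3A2 (CD98, 4F2hc) is a heavy chain that is linked by a disulfide bond to one of several SLC7 light chains, and the light chain decides which amino acids are carried. With SLC7A5 (LAT1) the pair exchanges glutamine for leucine and other large neutral amino acids, and with SLC7A11 (xCT) it exchanges glutamate for cystine, the source of cysteine for glutathione. Carriers such as SLC1A5 and SLC38A2 provide the glutamine for these exchanges. Many of these genes are known targets of ATF4, the transcription factor of the integrated stress response that is made when amino acids are short.

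Start-site windows were examined because most of the genes moved together. RefSeq windows of 300 bases, each holding a listed transcription start (GRCh38.p14), were held for 9 of the 10 genes, 16 windows in all. *SLC7A11* had no entry. TGATGNAA, the core letters of the element bound by ATF4 with C/EBP proteins, was searched on both strands and occurred in a window of 5 genes (*SLC3A2*, *SLC7A1*, *SLC1A4*, *SLC1A5* and *SLC38A1*), 5 of the 16 windows, and in 3.62% of the 35116 windows of all genes. CACGTG, the E-box core that MYC binds, reads the same on both strands and was present in 3 of the 16 windows (*SLC7A5*, *SLC1A5* and *SLC43A1*) and in 7.26% of all windows. The antioxidant element TGACNNNGC, whose letters can overlap the AP-1 site TGACTCA, was present in 5 of the 16 windows and in 13.3% of all. These matches describe letters in a window and are not binding sites. Because the 10 genes were chosen with earlier results known and many are known ATF4 targets, these shares are a description and not a test. *SLC7A5*, *SLC38A2* and *SLC43A1* had no TGATGNAA in their windows and were also called as falling in both clones. A window each of 3 genes that holds TGATGNAA, of *SLC7A5*, and of *SLC7A6*, the gene with no called change, is shown 5′ to 3′ on the strand of the gene, with TGATGNAA or its reverse complement and CACGTG in capitals.
SLC3A2 (chr11:62881449-62881748, forward strand): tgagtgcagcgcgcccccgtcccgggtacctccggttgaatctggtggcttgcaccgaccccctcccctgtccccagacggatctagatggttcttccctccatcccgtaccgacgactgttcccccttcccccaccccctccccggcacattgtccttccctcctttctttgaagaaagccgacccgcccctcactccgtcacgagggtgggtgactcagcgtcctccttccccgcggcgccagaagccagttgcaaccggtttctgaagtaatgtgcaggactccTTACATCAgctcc
SLC7A1 (chr13:29595639-29595938, reverse strand): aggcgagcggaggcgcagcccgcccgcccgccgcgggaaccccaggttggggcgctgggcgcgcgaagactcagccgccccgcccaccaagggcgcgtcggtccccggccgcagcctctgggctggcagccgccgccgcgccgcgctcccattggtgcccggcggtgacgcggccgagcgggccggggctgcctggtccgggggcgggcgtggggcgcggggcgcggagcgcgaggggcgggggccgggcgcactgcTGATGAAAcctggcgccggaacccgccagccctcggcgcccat
SLC1A4 (chr2:64989149-64989448, forward strand): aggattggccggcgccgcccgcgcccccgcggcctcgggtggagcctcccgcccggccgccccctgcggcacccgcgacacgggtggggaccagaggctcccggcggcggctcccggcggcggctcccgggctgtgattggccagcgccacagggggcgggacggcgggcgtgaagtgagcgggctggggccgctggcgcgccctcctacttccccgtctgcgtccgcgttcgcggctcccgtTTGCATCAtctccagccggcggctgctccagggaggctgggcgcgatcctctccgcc
SLC7A5 (chr16:87869458-87869757, reverse strand): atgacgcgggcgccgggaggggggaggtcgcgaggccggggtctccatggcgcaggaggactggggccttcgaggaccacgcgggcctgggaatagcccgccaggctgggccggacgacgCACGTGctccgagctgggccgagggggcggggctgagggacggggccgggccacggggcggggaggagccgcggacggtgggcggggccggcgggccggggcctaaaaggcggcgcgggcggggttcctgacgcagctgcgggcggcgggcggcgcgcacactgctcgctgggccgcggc
SLC7A6 (chr16:68264276-68264575, forward strand): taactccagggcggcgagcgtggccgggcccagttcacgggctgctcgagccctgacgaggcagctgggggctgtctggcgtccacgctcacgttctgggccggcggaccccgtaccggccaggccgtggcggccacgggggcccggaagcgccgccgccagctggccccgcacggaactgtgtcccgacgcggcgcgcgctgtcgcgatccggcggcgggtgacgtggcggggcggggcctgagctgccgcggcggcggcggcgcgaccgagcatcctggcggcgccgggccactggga
The match of *SLC1A4* begins 7 bases before the listed start, and those of *SLC7A1* and *SLC3A2* begin 7 and 37 bases after it. In *SLC7A5* the CACGTG begins at position -130 from the start.

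Resistant cells had less RNA of most of these transporters than parental cells, and for 8 of the 10 the fall was deeper in C17.2. There, 9 of the 10 genes fell (adjusted p under 0.05 by limma, Benjamini-Hochberg corrected), beside 13.9% of the 15614 tested genes that fell and 27.3% that changed in either direction. In C3.2, 8 of the 10 fell, beside 6.90% of tested genes that fell and 11.4% that changed. Because the 10 were chosen with earlier results of these data known, these counts and shares are a description and not a test. None of the 10 rose in either clone, also at an unadjusted p under 0.05 in limma, beside 13.4% of tested genes that rose in C17.2 and 4.46% in C3.2. In scaled TPM, the resistant libraries lay below the parental ones without overlap for 9 genes in each clone (32.7% of tested genes in C17.2 and 28.1% in C3.2) and above them for *SLC7A6* in C3.2 (27.8% of tested genes). The median log2 fold change of the 10 genes was -1.21 in C17.2 and -0.37 in C3.2, while the median over all tested genes was 0 in both. In a resistant library, fewer cells that express a gene and less of its RNA per cell cannot be told apart. The 9 calls in C17.2 were made under every other scaling tried. The count in C3.2 was 6 on TPM as deposited, 6 on TPM rescaled over protein-coding genes and 7 after quantile normalization, and 2 (*SLC7A11* and *SLC38A2*) when the libraries of C3.2 were fitted alone, a fit in which 74 genes passed. It was 5 without parental replicate 1 and 4 without parental replicate 2 of C3.2.

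TPM is a level per transcript length and can be compared between genes. *SLC38A2* was highest in every group, with a mean from 106 TPM in C3.2 resistant cells to 181 TPM in C17.2 parental cells. *SLC7A11* was lowest in every group, with 14.3 ± 0.0424 TPM (SD, n = 2) in C17.2 parental cells and 0.815 ± 0.0354 TPM (SD, n = 2) in C3.2 resistant cells. In parental cells of both clones *SLC1A5* came next after *SLC38A2*, and *SLC7A5* ranked above *SLC7A6*. In resistant cells of both clones *SLC7A6* ranked above *SLC7A5*, an order that turns in 3 of the 4 resistant libraries where the TPM of the *SLC7A5* pseudogenes is added to that of *SLC7A5*. For most neighbors in these orders the ranges of the libraries did not overlap, though some gaps were smaller than the spread within a gene. In C3.2 resistant cells, *SLC3A2* had 44.9 and 40.5 TPM and *SLC7A6* 39.4 and 39.2 TPM. Ranges overlapped for *SLC3A2* and *SLC38A1* in C17.2 parental cells, for *SLC1A5* and *SLC38A1* and for *SLC1A4* and *SLC43A1* in C3.2 parental cells, and for *SLC38A1* and *SLC1A5* in C3.2 resistant cells.

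**Figure D1:**
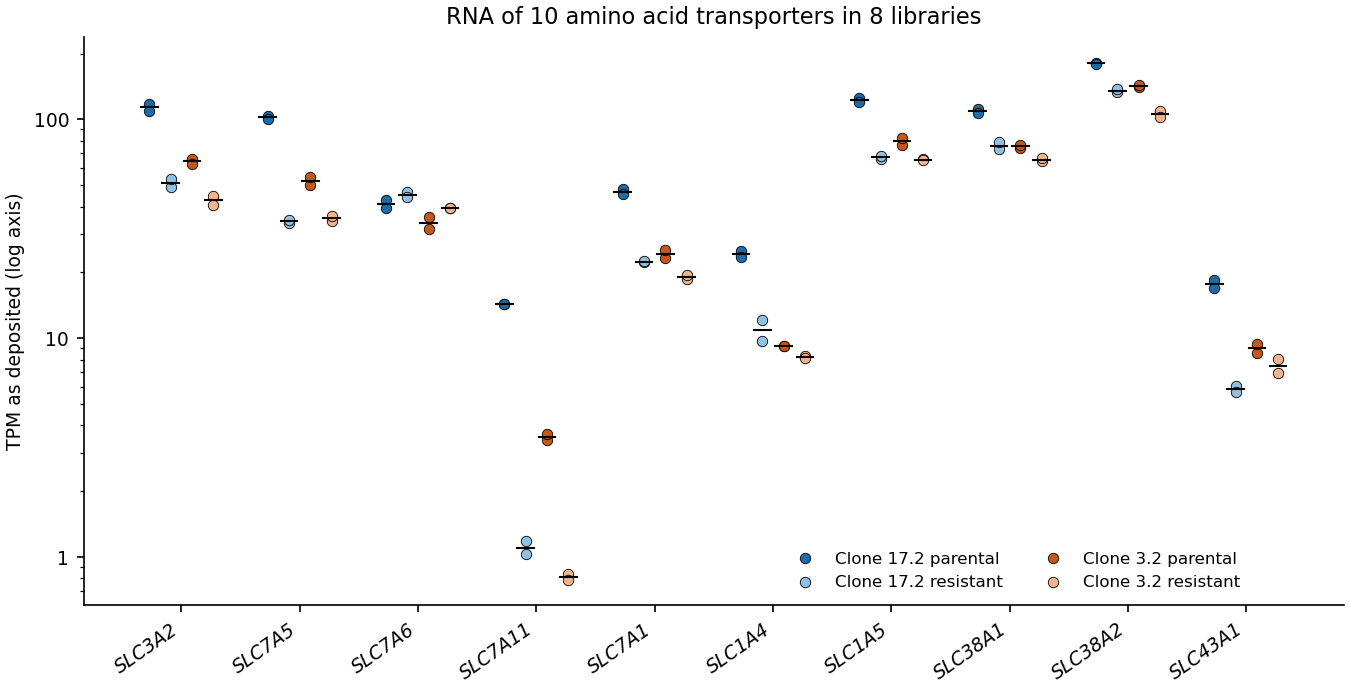
TPM as deposited (log axis) of each of the 10 transporters, with a point for each library and a short line at the mean of the 2 libraries of a group. C17.2 parental libraries are the highest for 9 of the genes, and *SLC7A6* is the exception.

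*SLC3A2* (ENSG00000168003.16, chromosome 11, positions 62856004 to 62888880, forward strand of GRCh38), the shared heavy chain, had 117 and 110 TPM in the parental libraries of C17.2 and 48.9 and 53.4 TPM in its resistant libraries. In C3.2 the values were 66.04 and 62.8 TPM in parental and 44.9 and 40.5 TPM in resistant libraries. The resistant libraries were lower without overlap in both clones. The log2 fold change of scaled TPM + 1 was -1.29 (standard error 0.056) in C17.2, with an adjusted p of 5.15e-05 by limma, Benjamini-Hochberg corrected, and -0.65 (standard error 0.056, adjusted p = 0.00218) in C3.2. The noncoding RNA gene *SNHG1*, a neighbor of *SLC3A2*, also fell in C17.2 (log2 fold change -0.80, adjusted p = 1.94e-04), and its change was -0.16 in C3.2 (adjusted p = 0.105).

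*SLC7A5* (ENSG00000103257.9, chromosome 16, positions 87830023 to 87869507, reverse strand), the leucine and glutamine exchanger, had 104 and 100 TPM in parental and 33.6 and 34.8 TPM in resistant libraries of C17.2. The values in C3.2 were 50.3 and 54.7 TPM and 34.5 and 36.02 TPM. The groups did not overlap in either clone, and the resistant libraries of both clones lay between 33.6 and 36.0 TPM as deposited. In scaled TPM the resistant means were 30.0 in C17.2 and 37.2 in C3.2. The log2 fold change was -1.71 in C17.2 (standard error 0.056, adjusted p = 1.97e-05 by limma, Benjamini-Hochberg corrected), so that the resistant level was 29.95% of the parental one in scaled TPM, and -0.63 in C3.2 (standard error 0.056, adjusted p = 0.00238), where 64.3% remained. Reads of *SLC7A5* could be shared with its pseudogenes *SLC7A5P1*, listed at 9.71 to 22.5 TPM, and *SLC7A5P2*, listed at 0 in C17.2 and at 0 to 11.3 TPM in C3.2. With the 3 genes summed, the log2 ratio of mean deposited TPM was -1.39 in C17.2, against -1.58 for *SLC7A5* alone. In C3.2 it was -0.38, against -0.57 for *SLC7A5* alone, and the division of reads there is uncertain.

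*SLC7A11* (ENSG00000151012.13, chromosome 4, positions 138164097 to 138242349, reverse strand), the cystine and glutamate exchanger, changed most of the 10 genes in both clones. It had 14.4 and 14.3 TPM in parental libraries of C17.2 and 1.03 and 1.18 TPM in the resistant ones. In C3.2 the parental libraries held 3.44 and 3.67 TPM and the resistant ones 0.840 and 0.790 TPM. There was no overlap, and 6.89% of the parental scaled TPM remained in C17.2 and 21.9% in C3.2. The log2 fold changes were -2.94 (standard error 0.074, adjusted p = 8.88e-06 by limma, Benjamini-Hochberg corrected) and -1.40 (standard error 0.074, adjusted p = 4.07e-04), on a scale that understates changes near 1 TPM. It stood 20th from the largest fall among the 15614 tested genes in C17.2, and 178th in C3.2. The antisense gene *SLC7A11-AS1* did not exceed 0.08 TPM in any library.

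*SLC7A6* (ENSG00000103064.15, chromosome 16, positions 68264516 to 68301823, forward strand), the light chain of y+LAT2, which exchanges cationic amino acids for neutral ones with sodium, was the only one of the 10 not called in either clone. Its parental and resistant libraries held 42.9 and 39.4 TPM and 46.6 and 43.99 TPM in C17.2, and 31.6 and 35.9 TPM and 39.4 and 39.2 TPM in C3.2. In deposited TPM the resistant libraries were above the parental ones in both clones, and in scaled TPM those of C17.2 overlapped. The log2 fold change in C17.2 was -0.021 (95% confidence interval -0.18 to 0.14, adjusted p = 0.853 by limma, Benjamini-Hochberg corrected), and its sign turned to 0.14 on TPM as deposited, to 0.062 on TPM rescaled over protein-coding genes and to 0.042 without resistant replicate 2. It was 0.15 in C3.2 (95% confidence interval -0.0068 to 0.31, adjusted p = 0.196). The gene *SLC7A6OS* overlaps it on the opposite strand with 8.57 to 12.3 TPM, and the strand setting of the counting is not given in the sources used here.

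**Figure D2:**
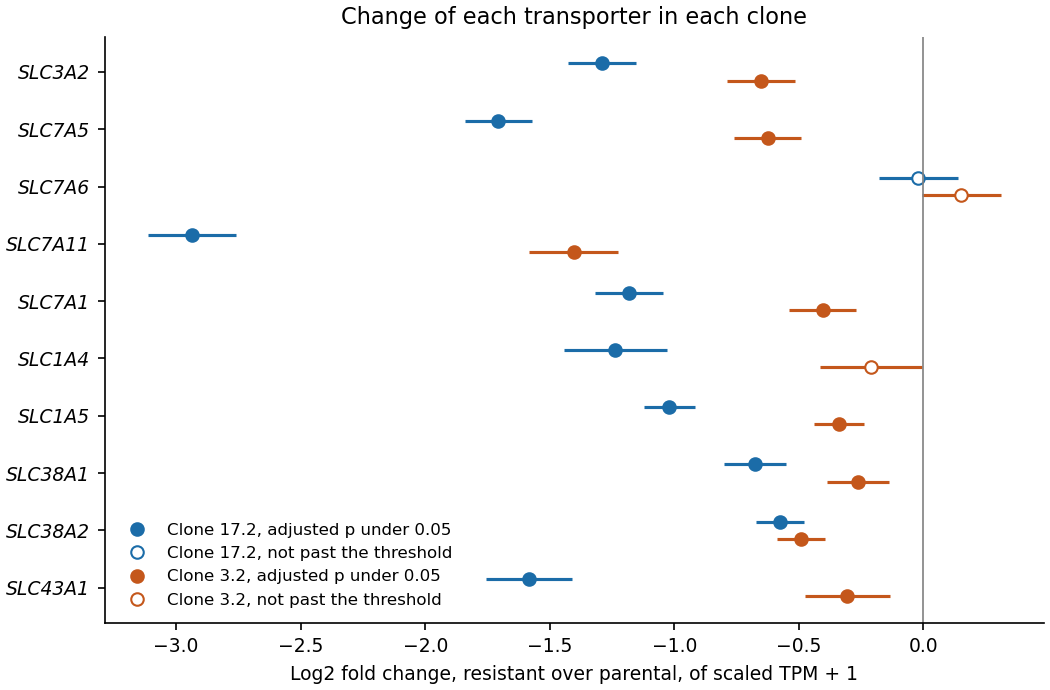
Log2 fold change of scaled TPM + 1, resistant over parental, for each transporter in C17.2 (blue) and C3.2 (orange), with 95% confidence intervals from limma and open points where the adjusted p was 0.05 or more. *SLC7A11* lies at -2.94 and -1.40, and the intervals of *SLC7A6* reach 0 in both clones.

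The light chain RNAs were also compared as shares within each library, which no scaling between libraries can move. *SLC7A5* made up 64.5 and 65.1% of the summed TPM of *SLC7A5*, *SLC7A6* and *SLC7A11* in the parental libraries of C17.2 and 41.3 and 43.5% in the resistant ones. *SLC7A6* went from 26.6 and 25.6% to 57.4 and 55.02%. In C3.2, *SLC7A5* made up 58.9 and 58.03% in parental and 46.2 and 47.4% in resistant libraries, and *SLC7A6* 37.1 and 38.1% and 52.7 and 51.6%. As listed, *SLC7A6* was the most abundant light chain RNA in all 4 resistant libraries and in 0 of the 4 parental ones. This rests on how reads were divided between *SLC7A5* and its pseudogenes. With their TPM summed, a choice made after seeing the data, *SLC7A5* was at 45.5 and 44.5 TPM in the resistant libraries of C17.2 and at 68.3 and 50.9 TPM in those of C3.2, and *SLC7A6* was above it in 1 of the 4, resistant replicate 1 of C17.2. The shares as listed of *SLC7A5* and *SLC7A6* were separated without overlap in both clones, and 2 against 2 libraries allow no exact test below p = 0.333. They are shares of RNA, and the protein pairs were not measured here.

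Further light chains of SLC3A2, *SLC7A7* and *SLC7A8*, rose in both clones. *SLC7A7* (y+LAT1) had 3.02 and 2.88 TPM in parental and 7.33 and 6.51 TPM in resistant libraries of C17.2, and 2.29 and 2.16 TPM and 4.75 and 4.95 TPM in C3.2. Its log2 fold change was 0.86 in C17.2 (adjusted p = 0.00116 by limma, Benjamini-Hochberg corrected) and 0.82 in C3.2 (adjusted p = 0.00439). *SLC7A8* (LAT2), at 1.46 to 4.05 TPM, rose by 0.58 (adjusted p = 0.00757) and 0.51 (adjusted p = 0.0265) on the log2 scale. Both rises in C3.2 were lost when that clone was fitted alone (adjusted p = 0.0686 and 0.103). The TPM of *SLC3A2* over that of its 3 member light chains was 0.720 ± 0.00821 (SD, n = 2) in parental and 0.635 ± 0.0463 in resistant cells of C17.2. In C3.2 it was 0.720 ± 0.0761 and 0.566 ± 0.0474. The ratio was lower in the resistant libraries without overlap in both clones, although the exact permutation test, two-sided, gave p = 0.333 in each, the smallest value that 2 against 2 libraries allow. With *SLC7A7* and *SLC7A8* added to the light chains, the difference in log2 ratio went from -0.18 to -0.32 in C17.2 and from -0.35 to -0.42 in C3.2. The value of -0.18 was -0.11 without resistant replicate 1 of C17.2.

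**Figure D3:**
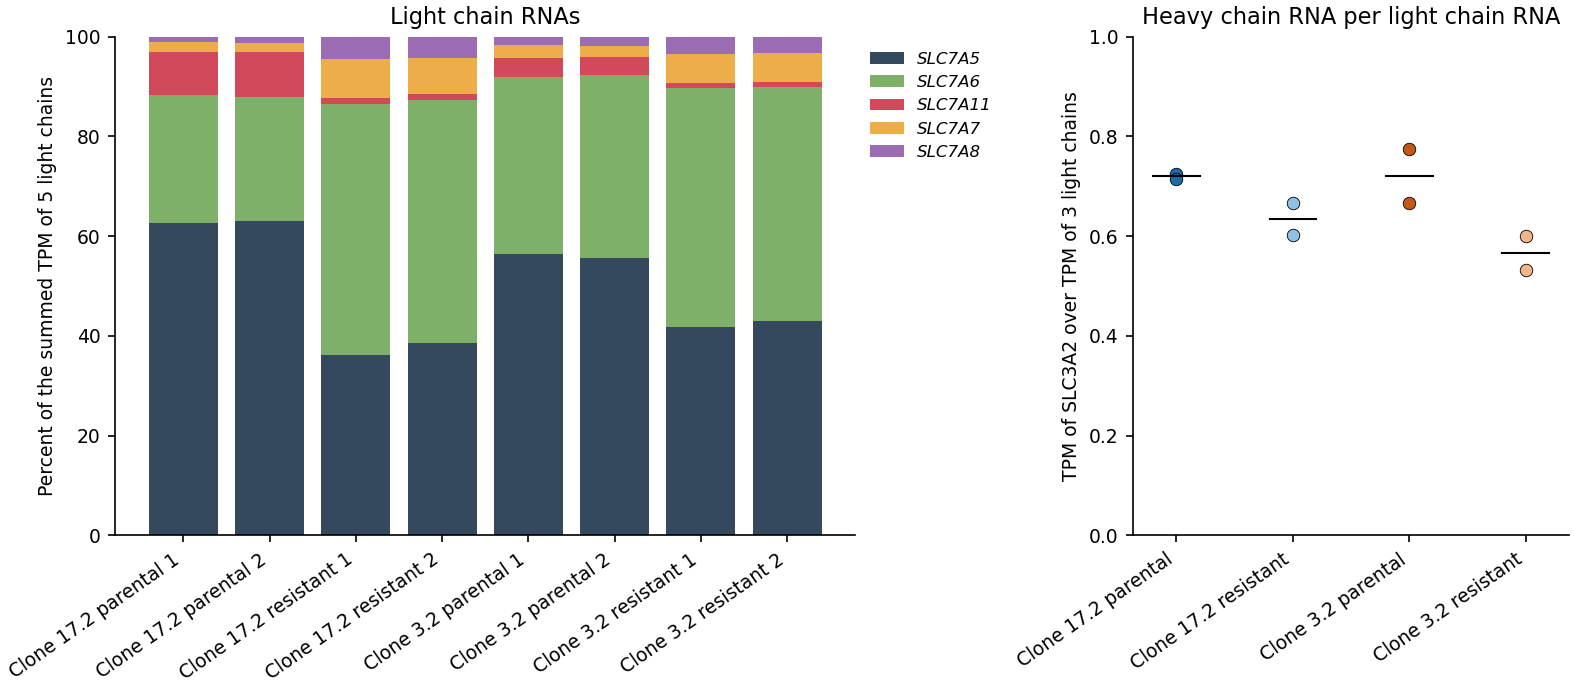
Left, the percent of the summed TPM of 5 SLC3A2 light chain genes that each took in every library. Right, TPM of *SLC3A2* over the summed TPM of *SLC7A5*, *SLC7A6* and *SLC7A11*, with a point for each library and a line at the group mean. The share of *SLC7A6* among the 5 is between 24.8% and 36.6% in parental and between 46.9% and 50.4% in resistant libraries.

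*SLC7A1* (ENSG00000139514.13, chromosome 13, positions 29509414 to 29595688, reverse strand), which carries arginine and lysine without a heavy chain, had 47.97 and 45.7 TPM in parental and 22.3 and 22.5 TPM in resistant libraries of C17.2. The C3.2 values were 23.4 and 25.3 TPM and 18.6 and 19.4 TPM. No libraries overlapped. It fell in both clones. The log2 fold change was -1.18 in C17.2 (standard error 0.056, adjusted p = 6.67e-05 by limma, Benjamini-Hochberg corrected) and -0.41 in C3.2 (standard error 0.056, adjusted p = 0.00957). The call in C3.2 was lost without either of its parental libraries (adjusted p = 0.0574 and 0.0686) and with the clone fitted alone (0.0996). Its relative *SLC7A3*, a cationic carrier outside the 10, fell in both clones as well (-1.17, adjusted p = 1.03e-04, and -0.63, adjusted p = 0.00346).

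The neutral amino acid exchangers of the SLC1 family both fell in C17.2. *SLC1A5* (ASCT2; ENSG00000105281.12, chromosome 19, positions 46774883 to 46788594, reverse strand), a route for glutamine, had 125 and 120 TPM in parental and 66.2 and 67.9 TPM in resistant libraries of C17.2, and 76.8 and 82.1 TPM and 65.9 and 65.2 TPM in C3.2. Resistant libraries of both clones lay between 65.2 and 67.9 TPM, below every parental library. The log2 fold changes were -1.02 (standard error 0.042, adjusted p = 4.36e-05 by limma, Benjamini-Hochberg corrected) and -0.34 (standard error 0.042, adjusted p = 0.00685), and the latter call was lost without parental replicate 2 of C3.2 (adjusted p = 0.0519) and with the clone fitted alone (0.0778).

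*SLC1A4* (ASCT1; ENSG00000115902.11, chromosome 2, positions 64988477 to 65023865, forward strand), which exchanges serine, alanine, cysteine and threonine, had 25.1 and 23.5 TPM in parental and 9.71 and 12.2 TPM in resistant libraries of C17.2, without overlap. In C3.2 it had 9.25 and 9.23 TPM and 8.32 and 8.15 TPM, values that did not overlap but were close. It fell in C17.2 (log2 fold change -1.24, standard error 0.085, adjusted p = 2.60e-04 by limma, Benjamini-Hochberg corrected). In C3.2 its log2 fold change of -0.21 did not pass (95% confidence interval -0.42 to -0.0053, adjusted p = 0.171). *LINC02245*, which overlaps *SLC1A4* on the opposite strand at 3.11 to 7.27 TPM, fell in C17.2 too (-0.85, adjusted p = 0.00436).

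*SLC38A1* (SNAT1; ENSG00000111371.15, chromosome 12, positions 46183063 to 46270017, reverse strand) and *SLC38A2* (SNAT2; ENSG00000134294.14, chromosome 12, positions 46358188 to 46372773, reverse strand) are sodium-coupled carriers of glutamine and other small neutral amino acids and lie 88.2 kb apart. *SLC38A1* had 112 and 107 TPM in parental and 73.3 and 78.6 TPM in resistant libraries of C17.2, and 73.8 and 76.8 TPM and 64.4 and 66.7 TPM in C3.2. *SLC38A2* had 182 and 180 TPM and 133 and 138 TPM in C17.2, and 140 and 144 TPM and 109 and 103 TPM in C3.2. Resistant libraries were lower without overlap for both genes in both clones. *SLC38A1* fell, with log2 fold changes of -0.68 in C17.2 (adjusted p = 3.86e-04 by limma, Benjamini-Hochberg corrected) and -0.26 in C3.2 (adjusted p = 0.0260). The latter call was lost under all 3 other scalings (adjusted p of 0.0949 to 0.119), and without either parental library of either clone. *SLC38A2*, the gene of the most abundant RNA, fell in both clones, with log2 fold changes of -0.57 (standard error 0.040, adjusted p = 2.72e-04) and -0.49 (standard error 0.040, adjusted p = 0.00171), and 66.9% and 71.0% of the parental scaled TPM remained.

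*SLC43A1* (LAT3; ENSG00000149150.9, chromosome 11, positions 57484534 to 57515780, reverse strand), a uniporter of large neutral amino acids that needs no heavy chain, had 18.5 and 17.02 TPM in parental and 6.06 and 5.67 TPM in resistant libraries of C17.2. Those of C3.2 held 8.60 and 9.44 TPM and 8.04 and 6.91 TPM. The groups were apart in both clones, widely in C17.2 and narrowly in C3.2. The log2 fold change was -1.58 (standard error 0.071, adjusted p = 5.52e-05 by limma, Benjamini-Hochberg corrected) in C17.2 and -0.31 (standard error 0.071, adjusted p = 0.0439) in C3.2. The C3.2 call did not hold on TPM as deposited (adjusted p = 0.152), on TPM rescaled over protein-coding genes (0.0894), without the filter (0.0864) or without any single library other than resistant replicate 1 of C3.2 (0.0629 to 0.191). Its paralog *SLC43A2*, outside the 10, fell in C17.2 (-1.14, adjusted p = 1.86e-04) and had a log2 fold change of 0.066 in C3.2 (adjusted p = 0.604).

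Summed over the 10 genes, scaled TPM was 751 and 766 in the parental libraries of C17.2 and 393 and 396 in the resistant ones. In C3.2 the sums were 541 and 547 in parental and 404 and 416 in resistant libraries. Neither clone showed overlap, and the exact permutation test, two-sided, gave p = 0.333 in each, the smallest possible. As a share of protein-coding TPM the 10 genes made up 0.189% and 0.193% in C17.2 parental, 0.129% and 0.130% in C3.2 parental, and between 0.103% and 0.107% in all 4 resistant libraries.

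The change itself differed between the clones for most of the genes. For 8 of the 10 the interaction passed the threshold with the larger fall in C17.2, beside 4.99% of tested genes that passed in that direction, 4.91% in the other and 9.90% in either. Differences in log2 fold change (C17.2 less C3.2) ran from -0.41 for *SLC38A1* (adjusted p = 0.0204 by limma, Benjamini-Hochberg corrected) to -1.53 for *SLC7A11* (adjusted p = 0.00109). *SLC43A1* followed at -1.28, *SLC7A5* at -1.08 and *SLC1A4* at -1.03. *SLC38A2* (difference -0.084, 95% confidence interval -0.22 to 0.054) and *SLC7A6* (difference -0.17, 95% confidence interval -0.40 to 0.052) did not pass. *SLC38A1* lost its call on TPM as deposited (adjusted p = 0.0698), where 7 of the 10 passed, and without any 1 of 6 libraries, all but the resistant ones of C3.2 (0.0555 to 0.0822). The interaction of *SLC38A2* was 0.0100 on TPM as deposited, the opposite sign.

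The same difference can be read as a gap between the clones that was wide in parental cells and narrow in resistant cells. In parental cells all 10 genes had more scaled TPM in C17.2 than in C3.2, with ratios from 1.09 for *SLC7A6* to 3.60 for *SLC7A11* and a median of 1.64. In resistant cells the ratios ran from 0.656 for *SLC43A1* to 1.13 for *SLC7A11* with a median of 0.975, and 4 of 10 were above 1. The ratio was nearer to 1 in resistant cells for 10 of the 10 genes, beside 52.1% of 12794 genes with a mean scaled TPM of at least 1 in every group, for which the median ratio was 0.994 in both states. On TPM as deposited the count was 9 of 10, without *SLC38A2* (ratios 1.27 and 1.28). There the ratios ran from 1.22 to 4.03 (median 1.84) in parental and from 0.785 to 1.36 (median 1.17) in resistant cells. On TPM rescaled over protein-coding genes the resistant ratios ran from 0.684 to 1.18 (median 1.02). Where the resistant ratios lie about 1 thus depends on the scaling. The titles of the libraries carry a separate run of numbers for each clone, which the labels do not explain, so the clone and whatever these numbers mark cannot be told apart in these ratios.

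**Figure D4:**
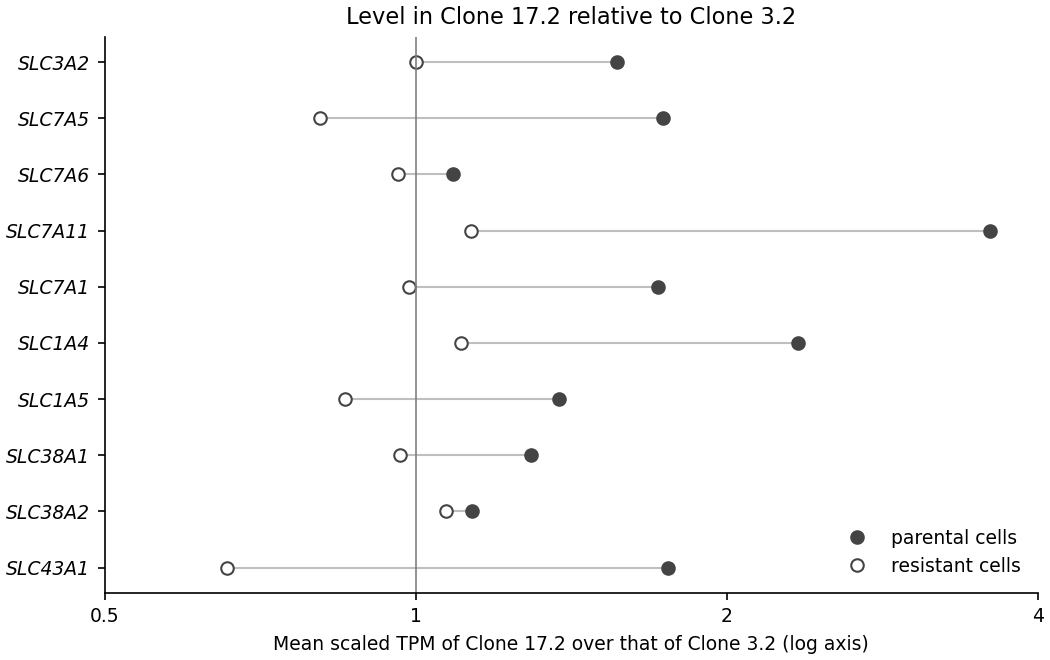
Mean scaled TPM in C17.2 over that in C3.2 (log axis) for each transporter, in parental cells (filled) and resistant cells (open), with a line joining them. All filled points lie above 1, between 1.09 and 3.60, and the open points lie between 0.656 and 1.13.

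Of 33 other amino acid transporters of the plasma membrane, 10 passed the filter on low values. In C17.2, 5 of these fell and 2 rose, and in C3.2, 2 fell and 2 rose, with median log2 fold changes of -0.45 and -0.063. Of all tested genes, 13.9% fell and 13.4% rose in C17.2, and 6.90% fell and 4.46% rose in C3.2. *SLC6A9* (GlyT1), a glycine carrier, had 9.23 and 9.66 TPM in parental and 0.540 and 0.30 TPM in resistant libraries of C17.2, and 1.23 and 1.05 TPM and 0.170 and 0.10 TPM in C3.2. Its log2 fold changes of -2.91 (adjusted p = 5.40e-05 by limma, Benjamini-Hochberg corrected) and -0.98 (adjusted p = 0.00818) were numerically the largest falls of that list. *SLC6A9* passed the filter through its parental libraries alone and was under 1 TPM in every resistant one. It could thus hardly be called in the other direction, and its log2 fold changes cannot be set beside those of higher genes. *SLC7A3* was the other gene that fell in both. The 3 that passed in C17.2 and not in C3.2 were *SLC43A2*, a uniporter of large neutral amino acids, and, named after their values were seen, *SLC38A5* (-0.69 and -0.021), a carrier of glutamine and histidine, and *SLC7A2* (-0.51 and -0.17), a cationic carrier. Their interactions were -1.21 (adjusted p = 0.00202), -0.67 (adjusted p = 0.00279) and -0.34 (adjusted p = 0.0949), so that the difference between the clones passed for *SLC43A2* and *SLC38A5*. The 4 calls in C3.2 were lost when that clone was fitted alone.

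Of 18 tested carriers of lysosomes and mitochondria (20 listed), 3 rose and 3 fell in C17.2, near the shares of all tested genes (13.4% and 13.9%), and 2 rose and 2 fell in C3.2 (4.46% and 6.90% of all tested genes). On TPM rescaled over protein-coding genes 6 rose in C17.2, as on TPM as deposited, and 4 in C3.2. Those that fell in C17.2 were *SFXN3* (-0.93), a mitochondrial serine carrier, *PQLC2* (-0.70), the lysosomal exporter of cationic amino acids also called SLC66A1, and *SLC25A12* (-0.40), a mitochondrial aspartate and glutamate carrier. In C3.2, *SLC25A29* (-0.79) and *SFXN1* (-0.40) fell, and *MFSD12* (0.52), needed for cysteine import into lysosomes, rose. *SLC25A39*, needed for mitochondrial glutathione import, rose in both clones, with log2 fold changes of 0.28 (adjusted p = 0.00412 by limma, Benjamini-Hochberg corrected) and 0.23 (adjusted p = 0.0197). The 4 calls in C3.2 were lost when it was fitted alone. *SLC38A7* (0.38), a lysosomal glutamine exporter, and *SLC25A44* (0.23), a mitochondrial carrier of branched-chain amino acids, rose in C17.2, and both calls were lost with that clone fitted alone (adjusted p = 0.0863 and 0.0691).

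Genes that sense amino acids upstream of mTORC1 were all expressed (30 of 30 tested). Of these, 8 rose and 5 fell in C17.2 (13.4% and 13.9% of all tested genes), against 14 and 1 on TPM as deposited. In C3.2, 2 rose and 1 fell, near the share of all tested genes that changed (11.4%), and 6 rose and 1 fell on TPM rescaled over protein-coding genes. *SESN2*, a leucine sensor and ATF4 target, had the largest change of the list in both clones. It had 21.6 and 20.1 TPM in parental and 2.67 and 2.79 TPM in resistant libraries of C17.2, and 5.81 and 6.31 TPM and 2.22 and 2.09 TPM in C3.2. It fell in both clones, with log2 fold changes of -2.66 (adjusted p = 6.26e-06 by limma, Benjamini-Hochberg corrected) and -1.23 (adjusted p = 2.28e-04). Its paralog *SESN1*, a p53 target, rose by 0.82 (adjusted p = 0.00208) and 0.47 (adjusted p = 0.0323). In C17.2, *CASTOR2* (0.52), a relative of the arginine sensor CASTOR1, and *LAMTOR2* (0.46), part of the lysosomal Ragulator, rose, and the falls of *FLCN* (-0.39) and *FNIP2* (-0.36), of the folliculin complex, were lost on TPM as deposited (adjusted p = 0.162 and 0.0598), with *FLCN* lost on rescaled TPM (0.0504) and *FNIP2* with the clone fitted alone (0.0635) as well. *LAMTOR1* (0.25) rose in C3.2, and not on TPM as deposited (adjusted p = 0.0524). With C3.2 fitted alone, *SESN2* kept its call and the other 2 were lost.

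Of 11 tested genes of cysteine use and glutathione (12 listed), 3 fell in both clones. Of all tested genes, 13.9% fell and 13.4% rose in C17.2, and 6.90% fell in C3.2. *CHAC1*, which degrades glutathione, had 29.7 and 28.9 TPM in parental and 1.27 and 1.22 TPM in resistant libraries of C17.2, and 13.03 and 13.5 TPM and 1.09 and 1.63 TPM in C3.2. Its log2 fold changes were -3.83 (adjusted p = 1.91e-05 by limma, Benjamini-Hochberg corrected) and -2.69 (adjusted p = 2.07e-04), further down than any of the 10 transporters. The others were *CTH* (-1.80 and -0.44) and *CBS* (-1.39 and -1.09), the enzymes that make cysteine from homocysteine. *CBS* was near the floor, at 1.18 to 1.76 TPM in parental and 0 to 0.26 TPM in resistant libraries. It passed the filter through its parental libraries alone, and its log2 fold changes cannot be set beside those of higher genes. *GSS* (0.42), glutathione synthetase, and *TXNRD1* (0.33), thioredoxin reductase, rose in C17.2, where 4 rose on TPM as deposited. The list's median log2 fold change was 0.024 in C17.2 and -0.025 in C3.2. The 3 calls in C3.2 were lost when that clone was fitted alone.

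Among 17 regulators of the transporters, all tested, 10 fell and 1 rose in C17.2, and 3 fell and 1 rose in C3.2. Of all tested genes, 13.9% fell and 13.4% rose in C17.2, and 6.90% fell and 4.46% rose in C3.2. On TPM as deposited 8 fell and 3 rose in C17.2, and 1 fell and 1 rose in C3.2. *ATF4* fell from 349 ± 17.17 to 198 ± 1.20 TPM (SD, n = 2) in C17.2 (log2 fold change -0.97, adjusted p = 3.16e-05 by limma, Benjamini-Hochberg corrected). In C3.2 it fell from 218 ± 6.00 to 155 ± 3.63 TPM (SD, n = 2; log2 fold change -0.55, adjusted p = 8.74e-04). *TRIB3*, a target and inhibitor of ATF4, was at 49.4 and 46.4 TPM in C17.2 parental libraries and at 3.30 to 4.25 TPM in the other 6 libraries. *ATF5*, another stress-response factor, was at 221 and 208 TPM in C17.2 parental libraries and between 17.4 and 28.1 TPM elsewhere, and *DDIT3* (CHOP) was at 34.6 and 35.4 TPM and between 6.91 and 11.9 TPM elsewhere. The parental libraries of C17.2 thus stood above all others for these 3 genes.

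The log2 fold changes in C17.2 were -3.51 for *TRIB3*, -3.07 for *ATF5* and -2.09 for *DDIT3*, all called. In C3.2 their log2 fold changes of -0.22, -0.26 and -0.55 did not pass (adjusted p of 0.0640 to 0.123 by limma, Benjamini-Hochberg corrected). The interaction passed for each (*TRIB3* -3.29, *ATF5* -2.80 and *DDIT3* -1.54). *CEBPG*, a partner of ATF4, fell in C17.2 (-1.17) and in C3.2 (-0.24), and so did *MYC* (-0.75 and -0.29). The C3.2 call of *MYC* was lost under all 3 other scalings (adjusted p of 0.0775 to 0.124), and that of *CEBPG* under 2 of them (0.144 and 0.118). With C3.2 fitted alone, *ATF4* kept its call and the other 3 were lost. *NFE2L2*, the activator of the antioxidant element, fell in C17.2 (-0.25, adjusted p = 0.0239), which did not hold on TPM as deposited (0.294) or rescaled over protein-coding genes (0.0877), and its log2 fold change in C3.2 was 0.0080 (adjusted p = 0.955). *NEDD4L*, a ubiquitin ligase of membrane proteins, rose in C17.2 (0.35, adjusted p = 0.0490), which was lost with that clone fitted alone (0.0921). *TFEB*, a factor of lysosomal genes, went down in C17.2 (-0.38, adjusted p = 0.0232) and up in C3.2 (0.46, adjusted p = 0.0265). The fall of *TFEB* was lost on TPM as deposited (adjusted p = 0.106) and with C17.2 fitted alone (0.0553).

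**Figure D5:**
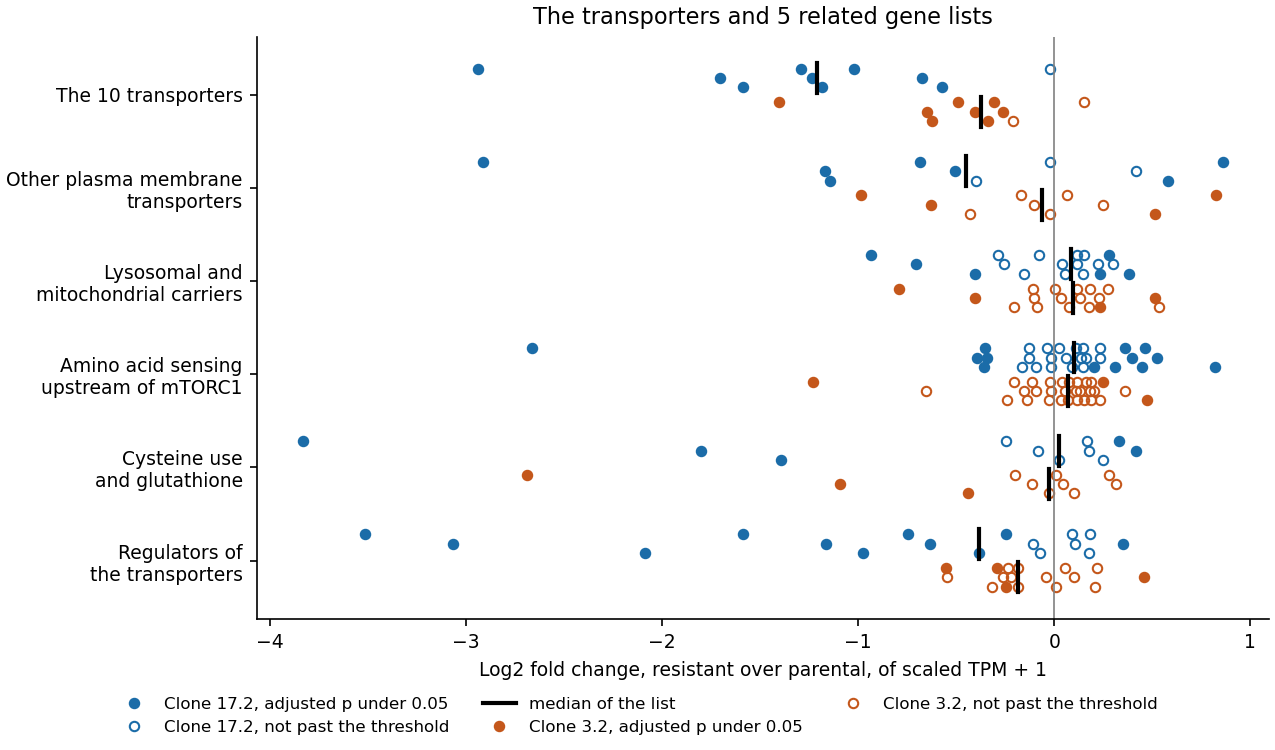
Log2 fold change of scaled TPM + 1, resistant over parental, for each tested gene of 6 lists in C17.2 (blue) and C3.2 (orange), filled where the adjusted p was under 0.05, with a black bar at the list median (-1.21 and -0.37 for the 10 transporters). Points are spread vertically only to keep them apart.

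Genes outside the list whose levels ran most closely with the mean profile of the 10 transporters were *HIST1H2BO* (Pearson's r = 0.997), *PHGDH* (0.996), *HASPIN* (0.995), a histone kinase gene, *HADH* (0.995), of fatty acid oxidation, and *TXNIP* (0.995), out of 8555 protein-coding genes with a mean of at least 5 TPM. This is a description over 8 libraries that share 4 groups. *PHGDH*, the first enzyme of serine synthesis, went from 275 ± 4.66 to 81.4 ± 2.86 TPM (SD, n = 2) in C17.2 and from 118 ± 7.43 to 73.98 ± 1.93 TPM in C3.2. *HIST1H2BO*, a histone gene, went from 904 ± 42.2 to 475 ± 3.35 TPM and from 484 ± 31.8 to 422 ± 6.55 TPM. *TXNIP*, an inhibitor of thioredoxin and glucose uptake, went from 58.4 ± 0.0707 to 28.2 ± 0.990 TPM and from 30.00 ± 1.42 to 24.2 ± 1.12 TPM. Among the 10 transporters, the 36 pairs without *SLC7A6* had r between 0.814 and 0.999, and the 9 pairs with *SLC7A6* between -0.34 and 0.045.

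The libraries showed the B-lineage identity that the labels give. Of 10 B-lineage markers, 7 were at 1 TPM or more in all 8 libraries, among them *PAX5* and *EBF1* at 94.4 to 193 TPM, while *DNTT*, *BLNK* and *RAG1* stayed under 0.84 TPM. The summed TPM of the list was 696 to 747 in parental and 640 to 644 in resistant libraries of C17.2, and 692 to 735 and 553 to 589 in C3.2. Of the 7 tested, 4 fell in C17.2, and 4 fell and 1 (*PAX5*) rose in C3.2. Among all tested genes, 13.9% fell in C17.2, and 6.90% fell and 4.46% rose in C3.2. *IGLL1* (-2.16 and -2.35) and *CD79B* (-1.51 and -1.03), parts of the pre-B-cell receptor complex, fell the most. *CD79A* fell in both clones (-0.41 and -0.20) and *VPREB1* in C3.2 (-0.52). The C3.2 call of *CD79A* was lost under all 3 other scalings (adjusted p of 0.179 to 0.259), and of the list's 5 calls in C3.2 *IGLL1* alone was kept with the clone fitted alone. Of 12 markers of other blood cells, *TRAC* alone reached 1 TPM in every library (38.6 to 49.2 TPM). *CD3D* and *PPBP* were listed at 0 throughout, and *CD3G*, *HBB* and *KLRD1* did not exceed 0.07 TPM. The list's sum was 49.7 to 55.2 TPM in parental and 42.4 to 47.99 TPM in resistant libraries, and *TRAC* fell in C17.2 (-0.42) and C3.2 (-0.22). The others called were *CSF1R* in C17.2 (-0.64) and *GP9* in C3.2 (-1.15), both at 3.57 TPM or less. The C3.2 call of *TRAC* was lost under all 3 other scalings (adjusted p of 0.0761 to 0.188), that of *CSF1R* after quantile normalization (0.0536), and with each clone fitted alone the fall of *TRAC* in C17.2 was the call kept. The part of these shifts in the transporter values was not tested.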

How the data were processed

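RNA-seq libraries of total RNA depleted of ribosomal RNA came from 2 parental and 2 resistant samples of each clone, grouped by the clone label. Per the labels and the study's methods, the authors trimmed reads with Trim Galore 0.6.3, aligned them to hg38 with STAR 2.7.9a and quantified genes with RSEM 1.3.1. The deposited unit is TPM per gene and library. It keeps no depth, so counting error is unknown. Labels name single-end reads and the methods paired-end reads.

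Entries reaching 1 TPM in any library were tested. A trimmed mean of log2 ratios to a common profile (30% of ratios and 5% of means removed at each end) gave scaling factors of 0.893 to 1.16. Log2(scaled TPM + 1), a scale that understates changes of low genes, was tested in limma 3.58.1 (R 4.3.3; lmFit, contrasts.fit, eBayes with trend) as 1 model of 4 groups, two-sided, with Benjamini-Hochberg adjustment over 15614 entries and a threshold of 0.05. The study's voom needs counts and was not repeated. Sums and ratios had exact permutation tests. The code of the fit was run on simulated data with independent noise between libraries, which cannot vouch for the calls in these data. Python 3.11.15, pandas 2.3.3, scipy 1.17.1 and matplotlib 3.10.9 were used.

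The 10 genes and all lists were chosen with earlier results of these data known. Named genes were up to 3 with the largest rise and 3 with the largest fall past the threshold in each list and clone, *ATF4*, *DDIT3*, *TRIB3*, *MYC* and *NFE2L2* in any case, and the 5 protein-coding genes closest in profile. Other scalings, pseudocounts, filters and models, and fits without each library, are compared in the closing section. Some genes beside those named are not reported here.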

Additional observations from a re-analysis of the deposited data

Results flagged for a closer look

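The change from parental to resistant cells differed between C17.2 and C3.2 for 8 transporters, by the interaction test in limma (adjusted p under 0.05 with Benjamini-Hochberg adjustment), and was the more negative in C17.2 for each. Given as the log2 fold change in C17.2 less that in C3.2, the difference was -1.53 for *SLC7A11* (adjusted p = 0.00109), -1.28 for *SLC43A1* (adjusted p = 0.00164), -1.08 for *SLC7A5* (adjusted p = 0.00139) and -1.03 for *SLC1A4* (adjusted p = 0.00544). It was -0.78 for *SLC7A1* (adjusted p = 0.00367), -0.68 for *SLC1A5* (adjusted p = 0.00219), -0.64 for *SLC3A2* (adjusted p = 0.00675) and -0.41 for *SLC38A1* (adjusted p = 0.0204). For 7 of the 8 the call was made under every alternative run, and *SLC38A1* was the exception. The clone and the run of numbers in the titles divide the libraries alike and cannot be told apart.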

How the results depend on the processing

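Of 500 values of single transporters under the alternatives, 461 kept their direction and their side of the threshold, 35 kept the direction and lost the call, and 4 reversed. The reversed values were those of *SLC7A6* in C17.2 (0.14 on TPM as deposited, 0.062 on TPM rescaled over protein-coding genes, and -0.083 to 0.042 with a library left out, above 0 without resistant replicate 2) and the difference between clones of *SLC38A2* (0.0100 on TPM as deposited), neither of them called in any fit. In C17.2 the count of transporters called was 9 throughout. In C3.2 it was 2 with the clone fitted alone, where 74 genes passed in all, and 4 to 8 when a library was left out, lowest without a parental library of C3.2. Genes called in all numbered 1173 in C3.2 without the filter on low values. With a library left out they numbered 2374 to 4551 in C17.2, 325 to 1785 in C3.2 and 541 to 1747 for the difference. Counts moved by more than 1.5 times in C17.2 without a parental library or resistant replicate 2 of that clone (2374, 2522 and 2636), in C3.2 without any parental library of either clone (1010, 995, 325 and 396) or its resistant replicate 2 (849), and for the difference without any library other than the resistant ones of C3.2 (541 to 861). For the difference, 7 to 8 transporters were called with a library left out. The cause was not tested.

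On TPM as deposited the median log2 fold change of all genes was 0.135 in C17.2 and 0.053 in C3.2, and the share of calls that were higher went from 49.1% to 75.1% in C17.2 (64.5% on TPM rescaled over protein-coding genes), from 39.3% to 57.8% in C3.2 (70.2% on TPM rescaled over protein-coding genes and 50.8% after quantile normalization), and from 49.6% to 64.0% for the difference. Leaving out a library moved the log2 ratio of summed scaled TPM between -0.96 and -0.93 in C17.2 and between -0.43 and -0.39 in C3.2. The scaling moved this ratio further, to between -0.86 and -0.78 in C17.2 and between -0.34 and -0.30 in C3.2 under 2 other scalings. With a library left out, the log2 ratio of *SLC3A2* to its light chains changed by -0.26 to -0.11 in C17.2 and by -0.45 to -0.24 in C3.2. No paired analysis was possible because the labels number no replicates within a group and tie no parental library to a resistant one.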
